A study of Arabidopsis thaliana with 16 samples.

Results

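The plastid genome of Arabidopsis thaliana carries a small set of genes whose products run its own gene expression, and the transcripts of 29 of them are described here across shoots and roots under zinc (Zn) deficiency and in the hma2 hma4 mutant. They were chosen by name: the genes of plastid ribosomal proteins (rps for the small subunit, rpl for the large) and of the plastid RNA polymerase (rpo), with matK, clpP, accD, ccsA, cemA, ycf1 and ycf2. They are 29 of the 76 plastid-encoded genes with a probe set of their own among the 22810 probe sets of the Affymetrix ATH1 array, a one-colour expression microarray. Of the 29, 18 encode ribosomal proteins (9 of either subunit), 4 the polymerase and 7 other proteins, and each had 1 probe set. The probe sets of rpl2, rpl23, rps7, ycf1 and ycf2 match both copies of a gene that lies in the inverted repeat, so those 5 cannot be split between copies.

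As background, plastids translate their own mRNAs on a bacterial-type ribosome whose proteins come partly from the plastid and partly from the nucleus. Their genes are read by 2 kinds of polymerase, a bacterial-type enzyme with the plastid-encoded core subunits alpha (rpoA), beta (rpoB), beta' (rpoC1) and beta'' (rpoC2), and nuclear-encoded enzymes related to those of phages. Photosynthesis genes are read mainly by the bacterial-type enzyme, whereas the rpoB operon and some other housekeeping genes are read mainly by the phage-type enzymes. Chloroplasts of leaves hold large amounts of both machineries, and the colourless plastids of roots hold less.

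There were 8 groups of 2 arrays. In the 7-week experiment wild-type plants grew hydroponically, the first 4 weeks in control medium and the last 3 in control or Zn-deficient medium, before their shoots and roots were harvested. In the 21-day experiment wild-type and hma2 hma4 seedlings (the latter without the HMA2 and HMA4 pumps, which load Zn into the xylem) grew on agar that held control medium; they were moved to vertical plates at 7 days and harvested 14 days later. All groups of the 21-day experiment, the mutant included, thus had control medium, and all groups of the 7-week experiment were wild type. The labels do not say whether replicates came from separate plants, so p-values measure the spread between these arrays, which may be technical, and the number of arrays limits the precision of every value. No probe set is named HMA2 or HMA4 in the annotation used here, so the mutation was not checked.

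Signals are the authors' MAS5 values, scaled to a trimmed mean of 500 on every array, and changes are differences of log2(signal + 8). A gene is called where limma's p-value, adjusted by the Benjamini-Hochberg method over 17059 probe sets, lies below 0.05. The summed signal of 4 leaf markers (RCA, PRK, SBPASE and LHCB4.1) was between 46267 and 80053 on the shoot arrays and between 378 and 1433 on the root arrays. That of 4 root markers (EXPA7, EXPA18, BGLU23 and F6'H1) was between 216 and 5097 on shoot arrays and between 13494 and 26009 on root arrays. The ratio of 3' to 5' actin signals, a measure of RNA integrity and labelling, was between 1.74 and 8.57 on the 7-week arrays and between 17.3 and 30.3 on the 21-day arrays. Between 25 and 29 of the 29 genes lay above the background signal of 52.2 on each array. Plastid transcripts mostly lack long poly(A) tails, and the primer used for labelling is not given in the sources used here, so how fully they were labelled was not tested. In the 7-week shoots the replicates stood apart for these genes: replicate 1 was brighter than replicate 2 for 25 of 29 genes in control and for 23 of 29 in Zn-deficient shoots. The median difference, replicate 2 minus replicate 1, was -0.74 and -1.03 on the log2 scale, while the median over all probe sets was 0.01 and -0.19. Some other groups were one-sided too, with smaller medians. In 21-day wild-type roots replicate 1 was brighter for 26 of 29 genes (median -0.31). In 21-day mutant shoots replicate 2 was brighter for 24 of 29 (median 0.27). The medians of the remaining groups lay between -0.15 and 0.14. The median level of plastid-encoded photosynthesis genes was also lower on replicate 2 than on replicate 1 in both 7-week shoot groups.

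**Figure D1:**
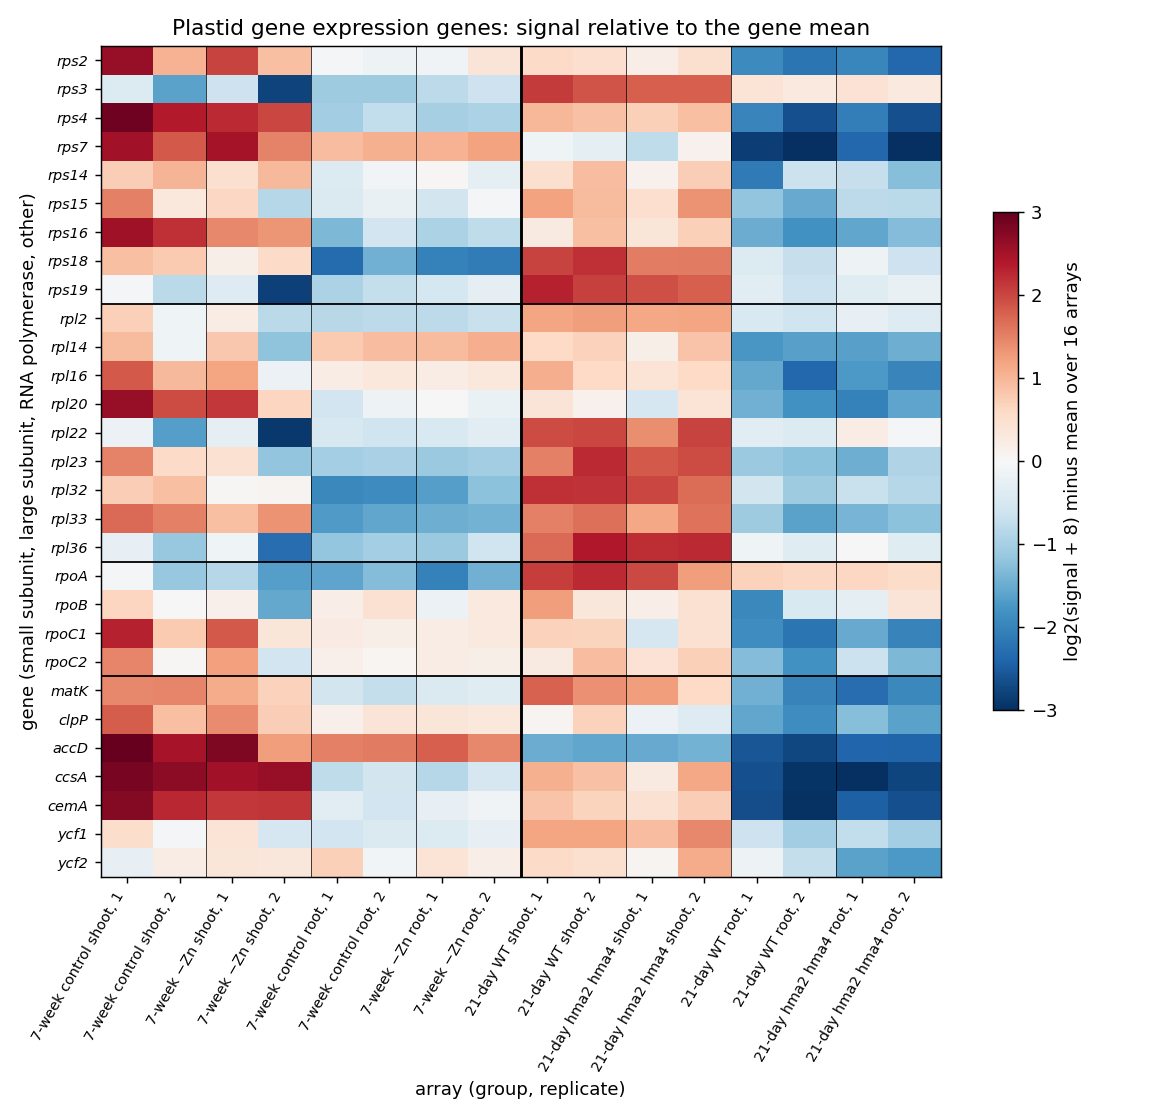
Log2(signal + 8) of the 29 genes (rows) on the 16 arrays (columns), each gene shown relative to its mean over all arrays, in log2 units by colour. The 4 columns at the right, the 21-day roots, lie below the gene mean for most genes, and the second Zn-deficient shoot array is the lowest of the 7-week shoot arrays for all 9 genes of the ribosomal cluster that ends in rpoA.

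The clearest difference lay between roots and shoots of the 21-day seedlings. All 27 tested genes were called lower in roots, in wild type and again in hma2 hma4, where 21.6% of all probe sets were called lower in either comparison. None was called higher, where 39.5% and 39.8% were. The tested genes include all 18 ribosomal protein genes, 3 of the 4 polymerase genes (rpoA, rpoC1 and rpoC2) and 6 of the other 7; rpoB and ycf2 were too dim to be tested. The roots of rps14 and rps16 lay below background on all 21-day arrays, so these genes passed the filter only through the shoots and have only a bound: shoots exceeded roots by at least 1.88-fold for rps14 and at least 3.62-fold for rps16 in wild type, and by at least 1.56-fold and 3.49-fold in the mutant. The median change over the 29 genes was -2.34 in wild type, a median fold of 5.07, and -2.05 in the mutant, a median fold of 4.15. Over all tested probe sets the median change was instead 0.28 and 0.30. In whole organs, fewer cells of a type and less RNA per cell cannot be told apart.

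Among the small subunit genes, rps4, whose product binds early in the assembly of the small subunit in bacteria, fell the most in both genotypes. Its signals were 3344 and 3099 in wild-type shoots and 416 and 262 in wild-type roots, and 2767 and 3153 in mutant shoots against 391 and 263 in mutant roots. The shoot and root arrays lay far apart, with a log2 change of -3.25 ± 0.22 (SE) in wild type (limma, adjusted p = 2.6e-07) and -3.17 ± 0.22 in the mutant (limma, adjusted p = 3.29e-07). For rps19, a small subunit gene of the large ribosomal cluster, wild-type shoots gave 9199 and 7709 and wild-type roots 1463 and 1184. This is a change of -2.67 ± 0.14 (SE; limma, adjusted p = 3.32e-08). The smallest called change of a small subunit gene in wild type was that of rps3, whose product lines the mRNA entry of the small subunit, with 12507 and 10947 in shoots and 3872 and 3581 in roots. Its change was -1.65 ± 0.12 (SE; limma, adjusted p = 4.41e-07).

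Among the large subunit genes, rpl23, whose product sits at the exit of the nascent chain, changed the most. Wild-type shoots gave 7889 and 13104 and wild-type roots 1272 and 1178. The groups did not overlap, and the change was -3.05 ± 0.23 (SE; limma, adjusted p = 5.67e-07), with -3.07 ± 0.23 in the mutant. The gene rpl32 followed with 7121 and 6979 in wild-type shoots and 1050 and 738 in wild-type roots, a change of -2.99 ± 0.17 (SE; limma, adjusted p = 6.76e-08). The gene rpl33, which lies beside rps18, gave 10977 and 12059 against 1815 and 1258, a change of -2.92 ± 0.19 (SE; limma, adjusted p = 1.9e-07). Across the 9 large subunit genes the wild-type change ran from -3.05 to -1.74, the latter for rpl2, whose product lies at the peptidyl transferase centre.

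The polymerase genes were lower in 21-day roots too, by amounts that differed between subunits. For rpoA, the alpha subunit, wild-type shoots gave 13187 and 14873 and roots 5094 and 4793, a change of -1.50 ± 0.20 (SE; limma, adjusted p = 5.58e-05). For rpoC1, the beta' subunit, shoots gave 1029 and 1023 and roots 169 and 134, a change of -2.71 ± 0.29 (SE; limma, adjusted p = 9.34e-06). For rpoC2, the beta'' subunit, shoots gave 255 and 406 and roots 80.7 and 54.6, a change of -2.15 ± 0.32 (SE; limma, adjusted p = 0.000135). Both arrays of each root group lay below both shoot arrays for these 3 genes. In the mutant the changes were -1.03 for rpoA, -1.74 for rpoC1 and -1.57 for rpoC2, each called by limma. The beta subunit gene rpoB gave 91.5 and 45.3 in wild-type shoots and 2.96 and 22.3 in wild-type roots, too close to the background of 52.2 for a comparison.

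Of the other genes, ccsA and cemA differed the most. The product of ccsA attaches haem to c-type cytochromes, and its signals were 4268 and 3734 in wild-type shoots and 322 and 257 in wild-type roots, a change of -3.76 ± 0.25 (SE; limma, adjusted p = 1.73e-07). The gene cemA encodes an envelope membrane protein linked to inorganic carbon uptake in the alga Chlamydomonas, and gave 3596 and 3171 against 307 and 250, a change of -3.57 ± 0.16 (SE; limma, adjusted p = 6.92e-09). The gene matK, which encodes a maturase for plastid introns, gave 9488 and 7117 against 1013 and 678, a change of -3.30 ± 0.25 (SE; limma, adjusted p = 5.58e-07). All 3 kept shoots and roots far apart, whereas accD, the plastid-encoded subunit of acetyl-CoA carboxylase in fatty acid synthesis, gave the smallest called change, with 202 and 193 against 91.5 and 80.8. That change was -1.13 ± 0.22 (SE; limma, adjusted p = 0.00115). The changes of clpP, a subunit of the Clp protease, and of ycf1, a gene tied to the protein import channel of the inner envelope, were -2.10 and -2.01.

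In the 7-week plants the same contrast was smaller and uneven between genes. In control plants 16 of the 27 tested genes were called lower in roots and 0 higher, against 19.8% and 35% of all probe sets, and in Zn-deficient plants 9 were called lower and 0 higher, against 18.4% and 32.4%. The 16 were 11 ribosomal protein genes and 5 others, and the 9 were 6 and 3, with 0 of the 3 tested polymerase genes called in either (2 of 3 in control plants without control shoot replicate 2). The median change over the 29 genes was -1.20 in control and -0.71 in Zn-deficient plants, beside 0.35 and 0.36 over all tested probe sets. The count for control plants was 10 without control shoot replicate 1, without control root replicate 1 or without control root replicate 2, and 19 without control shoot replicate 2. For Zn-deficient plants 14 were called lower without shoot replicate 2, and 9 lower and 5 higher without shoot replicate 1. The median over the 29 genes ran from -1.56 to -0.69 in control and from -1.09 to -0.08 in Zn-deficient plants, the last without Zn-deficient shoot replicate 1. With each array centred on its median, which moves the median of all probe sets to -0.05 and -0.06, 21 and 13 genes were called lower.

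Several genes stood far apart between the 7-week organs. For rps4, control shoots gave 12739 and 8751 and control roots 809 and 992, a change of -3.55 ± 0.25 (SE; limma, adjusted p = 7.01e-06). For rpl33, control shoots gave 12441 and 10961 and control roots 1172 and 1290, a change of -3.24 ± 0.22 (SE; limma, adjusted p = 5.64e-06). For rps16, shoots gave 840 and 660 and roots 49.2, below background, and 90.2, a change of -3.33 ± 0.32 (SE; limma, adjusted p = 4.33e-05). The replicates of rps4, rpl33 and rps16 in either organ lay close together compared with the gap between organs. The same held for ccsA, with 14776 and 13143 in control shoots against 1186 and 1378 in control roots, a change of -3.44 ± 0.21 (SE; limma, adjusted p = 3.7e-06). The changes of cemA and matK were -2.97 ± 0.23 and -2.09 ± 0.22 (SE), both called by limma. In Zn-deficient plants rps4 (-3.08), rpl33 (-2.57), rps18 (-2.42), ccsA (-3.25), cemA (-2.31) and matK (-1.29) were the most changed of their classes, and all 6 were called by limma.

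The genes of the long ribosomal cluster that ends in rpoA were then described as a group, with no test against the other genes. The cluster resembles the S10, spc and alpha operons of bacteria, and 9 of its genes are measured here, in the order rpl23, rpl2, rps19, rpl22, rps3, rpl16, rpl14, rpl36 and rpoA. In 7-week control plants only rpl23 and rpl2 of the 9 were called lower in roots by limma, where 19.8% of all probe sets were, and the median change over the 9 was -0.39 beside -1.20 over the 29 genes. In Zn-deficient plants 0 of 9 were called, where 18.4% of all probe sets were called lower and 32.4% higher. The median there was 0.34 beside -0.71. In the 21-day seedlings 9 of 9 were called lower in either genotype, where 21.6% of all probe sets were. The medians of -2.34 and -2.05 equal those of the 29 genes. The leaving out of an array moved these 7-week counts between 0 and 4 in control plants, and between 0 and 5 in Zn-deficient plants. The 5 were called higher in roots and arose without Zn-deficient shoot replicate 1.

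The gene rpl14, a large subunit gene in the middle of the cluster, shows the contrast. In 7-week control plants its signals were 1333 and 629 in shoots and 1201 and 1313 in roots, and in Zn-deficient plants 1207 and 296 in shoots and 1338 and 1480 in roots. The control organs overlapped, and the Zn-deficient roots lay above both shoot arrays. The changes of 0.45 ± 0.59 and 1.22 ± 0.59 (SE) were not called by limma (adjusted p = 0.537 and 0.113). In 21-day wild-type seedlings the same probe set gave 1054 and 1125 in shoots and 200 and 217 in roots, a change of -2.34 ± 0.21 (SE; limma, adjusted p = 2.12e-06).

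The neighbours rpl22 and rps3 gave a like picture. For rpl22, a large subunit gene, 7-week control shoots gave 1669 and 603 and control roots 1364 and 1254, while 21-day wild-type shoots gave 7339 and 7678 and roots 1526 and 1436. For rps3, 7-week control shoots gave 2193 and 958 and control roots 1391 and 1390. The changes of 0.38 ± 0.75 for rpl22 and -0.06 ± 0.63 for rps3 (SE) were not called by limma in 7-week control plants (adjusted p = 0.692 and 0.943). For both genes the shoot replicates differed by more than the organ means did.

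Other neighbours on the genome had changes of mixed size in 7-week control plants. In the row rpl33, rps18, rpl20, rps12 and clpP, the first 3 had changes of -3.24, -2.72 and -2.65, and the last, clpP, -1.08. The gene rpl20, whose product binds 23S rRNA early in assembly in bacteria, gave 2091 and 1322 in shoots and 223 and 297 in roots (limma, adjusted p = 0.00136), and rps18 gave 1772 and 1635 against 185 and 341 (limma, adjusted p = 0.000147). For clpP shoots gave 14878 and 7894 and roots 4702 and 5586, so that the organs did not overlap but the gap was small beside that between the shoot replicates (limma, adjusted p = 0.0211). Next to the NDH genes, rpl32 gave 2582 and 2904 against 400 and 410, a change of -2.73 ± 0.24 (SE; limma, adjusted p = 2.58e-05). The genes rps15 and ycf1 had changes of -1.23 and -0.74 that were not called (limma, adjusted p = 0.0762 and 0.0973).

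The genes accD, rps7 and rps14 had smaller changes in 7-week control plants, all called lower in roots. For accD shoots gave 5392 and 3225 and roots 1676 and 1711, a change of -1.30 ± 0.47 (SE; limma, adjusted p = 0.0412). For rps7, a small subunit gene of the inverted repeat, they gave 11440 and 7095 against 3734 and 4126, a change of -1.20 ± 0.34 (SE; limma, adjusted p = 0.0161). For rps14, which lies beside the photosystem I gene psaB, the signals were low, 109 and 134 against 44.7 and 57.9, a change of -1.13 ± 0.34 (SE; limma, adjusted p = 0.0202). The root arrays lay on either side of background, and the probe set passed the filter only through the shoots, so the size of its change is uncertain. The calls of rps2, rps7, rps14, rpl2, clpP and accD each stood in 1 of the 4 fits that left out an array, and that of rpl23 in 3 of 4.

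**Figure D2:**
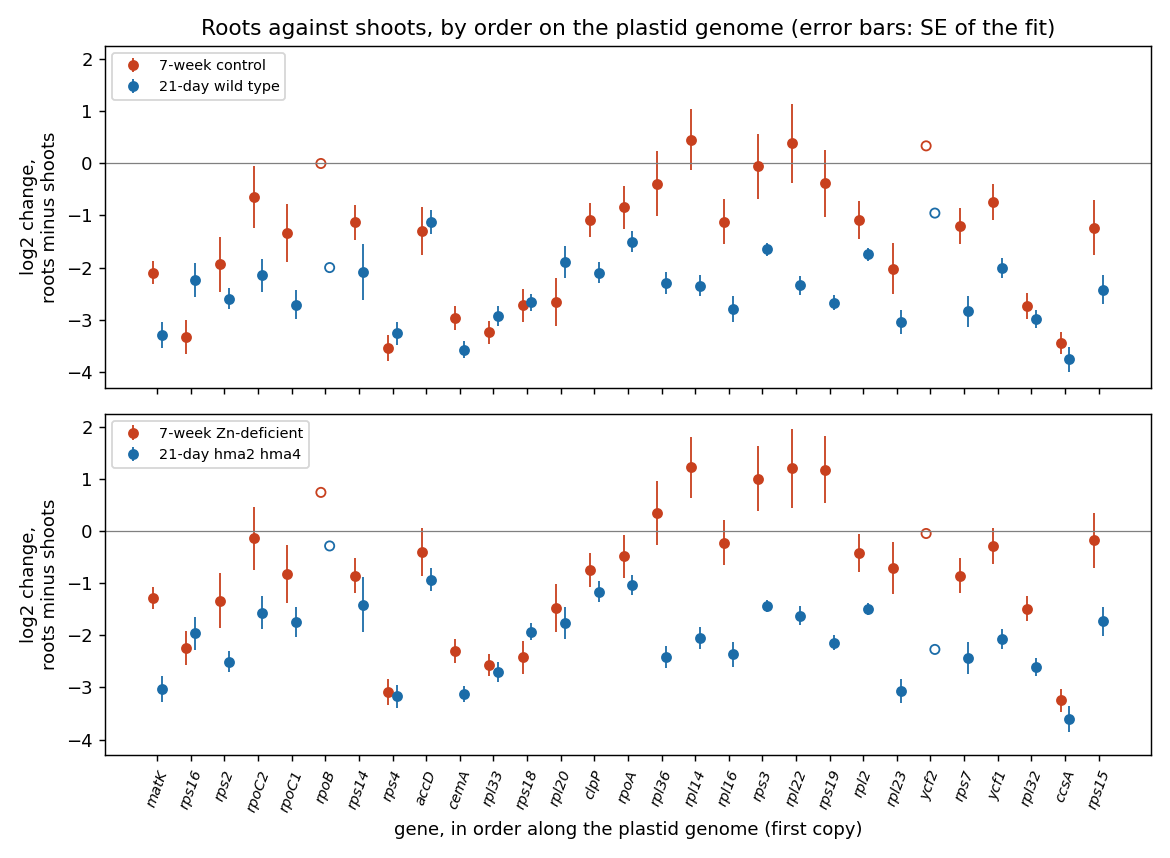
Log2 change, roots minus shoots, of the 29 genes in their order along the plastid genome, for 7-week plants (red) and 21-day seedlings (blue); error bars are the SE of the fit, and open points are rpoB and ycf2, which were not tested. From rpoA to rps19 the 7-week control points run from -1.12 for rpl16 to 0.45 for rpl14 and the Zn-deficient ones from -0.49 for rpoA to 1.22 for rpl14, against -2.79 to -1.50 in 21-day wild type and -2.42 to -1.03 in the mutant, whereas at rps4 and ccsA both lie between -3.08 and -3.76.

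The ribosomal and the polymerase genes were compared class against class. In 7-week control plants the median change from shoots to roots was -1.22 for the 18 ribosomal protein genes and -0.74 for the 4 polymerase genes, and in Zn-deficient plants it was -0.79 and -0.31. In the 21-day wild type it was -2.51 and -2.07, and in hma2 hma4 -2.10 and -1.30. The ribosomal median was thus the more negative in all 4 comparisons, by 0.47, 0.47, 0.44 and 0.80 on the log2 scale. These are descriptions over unequal numbers of genes, with no test, and 1 of the 4 polymerase genes is rpoB at background level.

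The difference between the classes was not steady between arrays of a group. Measured as the median ribosomal minus the median polymerase level, each gene relative to its own mean, it was 0.15 and 0.83 on the control shoot arrays and -1.06 and -0.77 on the control root arrays of the 7-week plants. The Zn-deficient shoot arrays gave -0.16 and 1.00, and those of Zn-deficient roots -0.69 and -0.69. In the 21-day experiment it was 0.22 and 0.30 in wild-type shoots, 0.43 and -0.24 in wild-type roots, 0.61 and 0.67 in mutant shoots, and -0.62 and -0.59 in mutant roots. Roots lay below shoots on all arrays in the 7-week plants and in the mutant, and wild-type roots and shoots of the 21-day seedlings overlapped. These values include rpoB, which lay below background in mutant roots (26.1 and 46.8), and they were not computed without it. The polymerase median of the mutant root arrays was -0.47 and -0.48 over the 4 genes, but -0.64 and -1.35 over rpoB, rpoC1 and rpoC2. The closeness of these root arrays thus depends on the genes taken. With 1 in place of 8 added to the signal, the wild-type difference was -0.08 in place of -0.44.

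**Figure D3:**
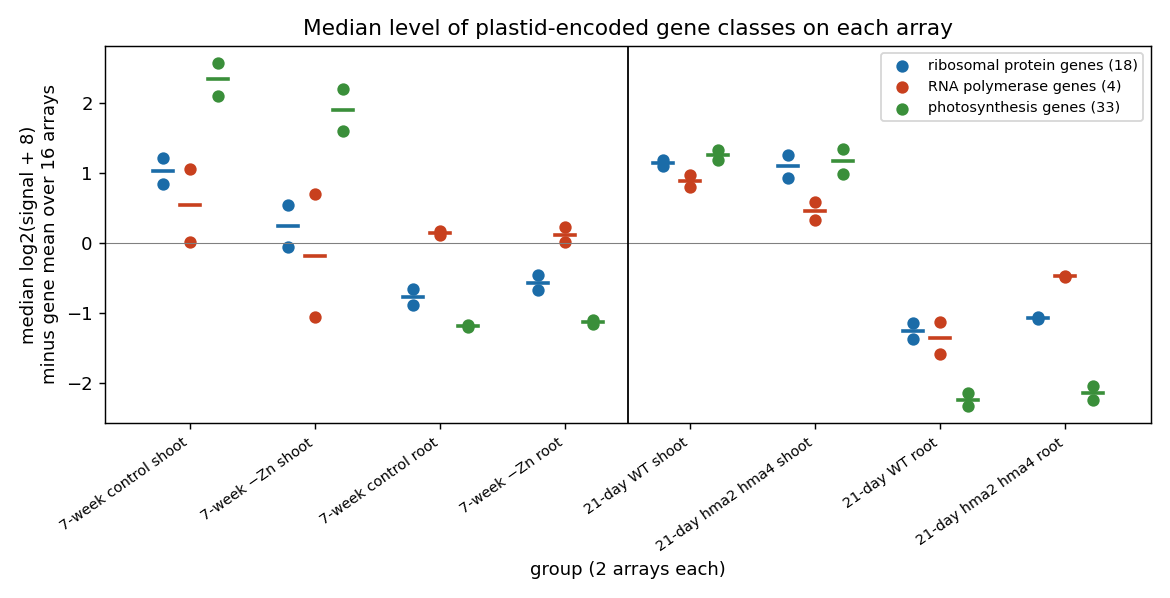
Median level of 3 classes of plastid-encoded genes on each array (points) with the mean of the 2 arrays (lines), as log2(signal + 8) minus the gene's mean over 16 arrays. In the 7-week control group the ribosomal median is 1.21 and 0.85 in shoots and -0.89 and -0.65 in roots, whereas the polymerase median is 1.06 and 0.02 in shoots and 0.17 and 0.12 in roots.

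The 7-week polymerase genes differed more between shoot replicates than between organs. For rpoA, control shoots gave 3026 and 1416 and control roots 1040 and 1271, a change of -0.84 ± 0.42 (SE) that was not called by limma (adjusted p = 0.117). For rpoC1, shoots gave 3194 and 1094 and roots 750 and 722, a change of -1.34 ± 0.56 (SE; limma, adjusted p = 0.0689). For rpoC2, shoots gave 598 and 216 and roots 235 and 221, a change of -0.64 ± 0.60 (SE; limma, adjusted p = 0.388). In all 3 the first shoot array was well above the second, and the second lay nearer to the roots than to the first. In Zn-deficient plants the changes of rpoA, rpoC1 and rpoC2 were -0.49, -0.83 and -0.14, and rpoB gave 38.4 and 6.51 in shoots and 28.8 and 42.9 in roots, all below background. The gene rps2, a small subunit gene that lies just beside rpoC2, was called in control plants (3698 and 1241 in shoots, 576 and 535 in roots, a change of -1.93 with limma, adjusted p = 0.0129). In Zn-deficient plants its change of -1.34 was not called (limma, adjusted p = 0.0603).

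Nuclear partners of these genes were set beside them. Of 33 nuclear loci of plastid ribosomal proteins 9 had a named probe set, and 9 of 9 were called lower in roots in all 4 comparisons, with median changes of -4.02, -3.48, -3.81 and -3.72 in 7-week control, 7-week Zn-deficient, 21-day wild-type and 21-day mutant plants. PRPS6 and PRPL3 had the largest changes in 7-week control plants (-4.91 and -4.13; limma, adjusted p = 1.59e-06 and 1.18e-06). The nuclear list thus had like medians in the 2 experiments (-4.02 and -3.81 in the control groups), where the plastid-encoded ribosomal genes had -1.22 and -2.51. The 33 plastid-encoded photosynthesis genes had medians of -3.54, -2.82, -3.37 and -3.16. Of them 33, 31, 32 and 32 were called lower, where 19.8%, 18.4%, 21.6% and 21.6% of all probe sets were. The genes psbA of photosystem II (-6.13; limma, adjusted p = 4.43e-07) and psbC (-5.36; limma, adjusted p = 1.11e-05) changed the most in 7-week control plants. The 11 genes of the plastid NDH complex had medians of -3.61, -2.87, -3.03 and -2.70. Several photosynthesis and NDH genes lay below background in roots of either experiment. In 21-day wild-type roots these included psaC (3.34 and 22.8) and ndhJ (6.38 and 30.2). In 7-week control roots they included psbN (37.4 and 22.7) and atpI (14.9 and 7.66). All of these passed the filter only through the shoots, so their calls as lower in roots are not independent of the filter. The size of such changes, and of the medians that include them, is uncertain.

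Partners of the other members were few. Of 15 nuclear Clp protease loci 6 had a probe set, with medians between -2.04 and -1.88 and with 6, 5, 6 and 6 called lower, beside -1.08, -0.75, -2.10 and -1.16 for the plastid-encoded clpP. CCS1 and CCDA, which act with ccsA in cytochrome c assembly, were called lower in roots in all 4 comparisons (medians -3.25, -2.20, -3.22 and -3.55), beside -3.44, -3.25, -3.76 and -3.60 for ccsA itself. Of the 9 partners of the import complexes only the plastid malate dehydrogenase gene MDH had a probe set, and it was called higher in roots in 3 of 4 comparisons (1.18, 1.44 and 0.56, and 0.22 in the mutant, which was not called). Of the 3 phage-type polymerase loci only RPOTmp, whose product serves mitochondria and plastids, had one, and its signals were 13.7 and 20.0 in 7-week control shoots and 34.2 and 36.3 in Zn-deficient shoots, all below background, so that it passed the filter only through the roots (107 and 85.9 in control, 108 and 134 in Zn-deficient plants). It was called higher in 7-week roots (limma, adjusted p = 0.00116 and 0.00577), but with shoots set to background only by at least 1.72-fold and at least 2.12-fold. In 21-day seedlings its change was -0.32 in either genotype and was not called (limma, adjusted p = 0.271 in both). None of the 6 sigma factor loci, 13 loci of polymerase-associated proteins or 4 loci of nuclear acetyl-CoA carboxylase subunits had a named probe set.

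**Figure D4:**
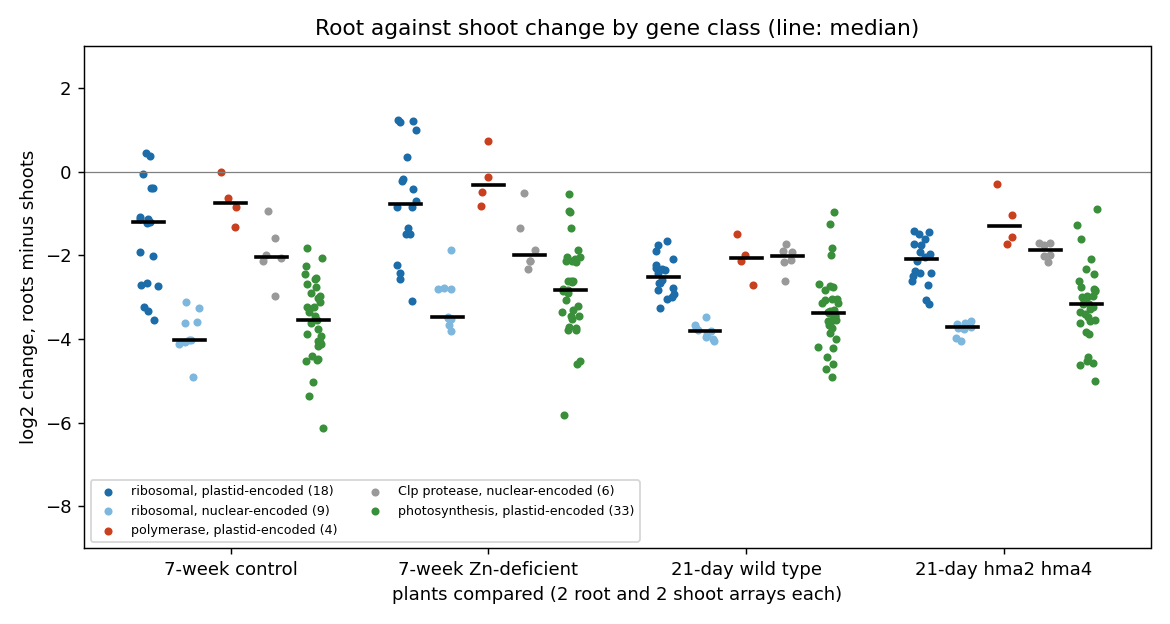
Log2 change, roots minus shoots, of single genes (points) by class with the class median (line), in 4 kinds of plant with 2 root and 2 shoot arrays each. The medians of the nuclear-encoded ribosomal proteins stay between -4.02 and -3.48, while those of the plastid-encoded ribosomal proteins run from -0.79 in 7-week Zn-deficient to -2.51 in 21-day wild-type plants.

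Zn deficiency was then compared with control within each organ of the 7-week plants. In shoots 0 of 27 tested genes were called by limma, where 0.92% of all probe sets were called, and 4 had an unadjusted p under 0.05, where 16.7% of all probe sets did. The change was negative for 28 of the 29 genes, with a median of -0.56 beside -0.02 over all tested probe sets. The median ran from -1.14 (without control shoot replicate 2) to -0.17 (without Zn-deficient shoot replicate 2) when single arrays were left out. In the same shoots the 4 leaf markers had changes from -0.89 to -0.24, none called. Their summed signals were 46267 and 48938 in Zn-deficient against 59948 and 67991 in control shoots. The 4 root markers did not move together, with changes from -1.35 to 4.77, 3 of them positive and none called. The Zn-deficient sums of 2824 and 3116, against 216 and 684 in control, came mostly from F6'H1 (2002 and 2547 against 16.1 and 278). BGLU23 gave 991 and 135 against 63.3 and 187. EXPA18 gave 79.9 and 125 against 58.8 and 131, and EXPA7 gave 43.5 and 16.5 against 77.7 and 87.2. The lowest and highest actin ratios of the 7-week arrays, 1.74 and 8.57, were those of the Zn-deficient shoots. The part of these markers and ratios in the result was not tested. In 1 fit of all 16 arrays 1 gene was called, rpl32 (-0.77; limma, adjusted p = 0.0354). The groups did not overlap for 9 genes that were lower, where 21% of all probe sets were, and for 1 that was higher, where 19.9% were. The higher gene was ycf2, which lay near background and was not tested. Such counts are over all 29 genes, whereas the shares are over the tested probe sets.

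The ribosomal genes with the largest changes in Zn-deficient shoots were rpl23, rps19 and rps15. For rpl23 control shoots gave 7776 and 4111 and Zn-deficient shoots 3837 and 1210, a change of -1.39 ± 0.50 (SE; limma, adjusted p = 0.211). For rps19 control shoots gave 1767 and 1047 and Zn-deficient shoots 1407 and 259, a change of -1.15 ± 0.65 (SE; limma, adjusted p = 0.416). For rps15 they gave 558 and 240 against 297 and 102, a change of -1.03 ± 0.53 (SE; limma, adjusted p = 0.371). For rps19 and rps15 the groups overlapped, and for rpl23 they did not. The second Zn-deficient shoot array was the lower one for all 3. For rpl32 the values were closer, 2582 and 2904 against 1571 and 1629, a change of -0.77 ± 0.24 (SE; limma, adjusted p = 0.163).

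The polymerase genes in Zn-deficient shoots had changes of -0.66 ± 0.42 for rpoA, -0.45 ± 0.56 for rpoC1 and -0.42 ± 0.60 for rpoC2 (SE), with limma's adjusted p between 0.475 and 0.778. Shoots gave 3026 and 1416 for rpoA in control and 1742 and 983 in Zn-deficient plants, with overlap. Among the other genes accD (-0.81), matK (-0.56) and cemA (-0.38) had the largest changes, with limma's adjusted p = 0.431, 0.238 and 0.455. Median changes were -0.64 for ribosomal and -0.55 for polymerase genes, -0.46 for plastid-encoded photosynthesis genes and -0.65 for the nuclear plastid ribosomal proteins. Of the last, 9 of 9 had a negative change and 7 an unadjusted p under 0.05, and 0 were called.

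In roots of Zn-deficient plants 0 of 27 genes were called by limma, where 0.106% of all probe sets were, and 0 had an unadjusted p under 0.05, where 2.31% did. The median change was 0.10, and single changes ran from -0.30 for rpoA to 0.48 for rpl32. For rpl32 control roots gave 400 and 410 and Zn-deficient roots 487 and 657, a change of 0.48 ± 0.24 (SE) with no overlap. The next ribosomal changes were 0.41 for rps19 and 0.37 for rps3, and the largest among the others were 0.28 for cemA, 0.24 for matK and 0.17 for ycf1. The changes of rpoC1 and rpoC2 were 0.06 and 0.08. The groups did not overlap for 10 genes that were higher and 1 that was lower, where 17.6% and 15.1% of all probe sets were.

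In hma2 hma4 seedlings 0 of 27 genes were called by limma against wild type in shoots, where 0.299% of all probe sets were called, and 6 had an unadjusted p under 0.05, where 9.6% did. These 6 were rps18, rps19, rpoA, rpoC1, matK and clpP, and all 6 had a negative change. For clpP wild-type shoots gave 4514 and 6839 and mutant shoots 3731 and 3250, a change of -0.67 ± 0.20 (SE; limma, adjusted p = 0.238). For rps18, a small subunit gene, they gave 3862 and 4328 against 2756 and 2776, a change of -0.56 ± 0.16 (SE; limma, adjusted p = 0.231). The groups of clpP and rps18 did not overlap.

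Among the polymerase genes of mutant shoots, rpoA gave 12488 and 7515 against 13187 and 14873 in wild type, a change of -0.53 ± 0.20 (SE; limma, adjusted p = 0.402). For rpoC1 mutant shoots gave 447 and 883 and wild-type shoots 1029 and 1023, a change of -0.70 ± 0.29 (SE; limma, adjusted p = 0.451). The mutant replicates of rpoA and rpoC1 differed from each other by more than the means of the genotypes did, and rpoC2 had a change of -0.01. Without mutant shoot replicate 1, rpoA was called (-0.90; limma, adjusted p = 0.0249). Further changes were -0.34 for rpl32, -0.32 for rps19, -0.65 for matK and -0.26 for ccsA. The median over the 29 genes was -0.19, with -0.19 for ribosomal and -0.50 for polymerase genes, beside -0.04 over all tested probe sets, and it ran from -0.34 to 0.04 when single arrays were left out. Groups did not overlap for 9 genes that were lower and 0 that were higher, where 21.1% and 15.8% of all probe sets were.

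In mutant roots 0 of 27 genes were called by limma, where 0.00586% of all probe sets were, and 1, rpl22, had an unadjusted p under 0.05, where 3.69% did. For rpl22 wild-type roots gave 1526 and 1436 and mutant roots 2205 and 1843, a change of 0.44 ± 0.18 (SE). The largest ribosomal change was 0.54 for rps15, rps14 lay below background in both genotypes, and among the others -0.38 for matK, 0.28 for cemA and 0.26 for clpP. The polymerase changes were -0.06 for rpoA, 0.26 for rpoC1 and 0.56 for rpoC2, and rpoB stayed at background. The median change was 0.15 over the 29 genes, 0.12 for ribosomal and 0.41 for polymerase genes. The last median includes the untested rpoB, whose change of 1.25 lies at background level, so its distance from the ribosomal median is uncertain. Groups did not overlap for 7 genes that were higher and 1 that was lower, where 15.5% and 17.6% of all probe sets were. The 7 include rpoB and the lower gene was ycf2, both below background in these roots and not tested.

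Whether the responses differed between organs was tested as interactions. For Zn deficiency 0 of 27 genes were called by limma, where 0.0117% of all probe sets were called, and 3 had an unadjusted p under 0.05 (rps16, rpl32 and matK), where 8.88% did. The interaction of rpl32, roots minus shoots of the Zn response, was 1.25 ± 0.34 (SE; limma, adjusted p = 0.357). For genotype 0 of 27 were called, where 0.0469% were, and 5 had an unadjusted p under 0.05 (rps18, rps19, rpl22, rpoC1 and clpP), where 6.02% did. The interaction of clpP was 0.93 ± 0.28 (SE; limma, adjusted p = 0.528).

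The size of the root to shoot change was compared between 7-week control and 21-day wild-type plants, a comparison added after the values were seen. Limma called 7 of 27 genes, all with a higher value (less negative, or positive for rpl14 and rpl22) of the change from shoots to roots in 7-week plants, where 13.6% of all probe sets were called in that direction. The 7 were rpl14 (2.79 ± 0.68), rpl22 (2.72 ± 0.86), rps19 (2.28 ± 0.73), rpl16 (1.67 ± 0.55), rps7 (1.64 ± 0.52), ycf1 (1.27 ± 0.41) and matK (1.20 ± 0.36; difference of log2 changes ± SE), with limma's adjusted p between 0.0118 and 0.0425. The first 4 belong to the ribosomal cluster, and the polymerase genes were not called, at 0.66 for rpoA, 1.37 for rpoC1 and 1.50 for rpoC2. The median difference was 1.03 over the 29 genes, 1.67 over the 9 genes of the cluster, and 0.14 over all tested probe sets. It was -0.26 for the photosynthesis genes, of which 3 were called in the same direction and 4 in the other, and -0.29 for the nuclear plastid ribosomal proteins. Some photosynthesis genes lay below background in roots, so the size of their differences is uncertain.

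Few of those 7 calls stood without single arrays. The count rose without 7-week control shoot replicate 1 and fell without any other single array, and it was 2 when limma's variance had no intensity trend. Only rpl14 was called in every such fit. The fit without 7-week control root replicate 2 also called a gene in the opposite direction. The experiments differ in age, culture and RNA measures, which cannot be told apart here, and the labels name no array batch. The actin ratios given above, and 25S rRNA signals of 31.0 to 450 on 7-week and 1613 to 6920 on 21-day arrays, move with the experiment, and their part in the result was not tested.

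Levels also differed between the experiments, each gene against its own probe set and without a test. In shoots of control wild type, accD gave 4308 ± 1532 (SD, n = 2) at 7 weeks and 197 ± 6.69 at 21 days, and ccsA gave 13959 ± 1155 and 4001 ± 377. The order was the opposite for rps3 (1575 ± 873 and 11727 ± 1104) and for rpoA (2221 ± 1138 and 14029.6 ± 1192). In roots rps7, a small subunit gene, gave 3930 ± 277 at 7 weeks and 236 ± 50.1 at 21 days, and rpl14 gave 1257 ± 79.1 and 208 ± 11.9. For rps7, rpl14 and accD the 7-week roots lay above the 21-day roots by far, whereas rps3 (1391 ± 0.761 and 3727 ± 206) and rpoA (1155 ± 164 and 4944 ± 213) lay below.

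A gene with the letters of a ribosomal protein was set aside. The plastid gene rps12 is trans-spliced, has 2 probe sets and is not among the 29. Its brighter probe set gave 2860 and 1735 in 7-week control shoots and 1134 and 1130 in control roots, a change of -0.97 that was not called (limma, adjusted p = 0.227). In 21-day seedlings it was called lower in roots by limma, with -2.34 in wild type and -2.16 in the mutant.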

How the data were processed

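Total RNA of 16 samples in 8 groups of 2, taken from the labels, was hybridised to ATH1 arrays. The deposited table holds log2 signals, which the authors computed with MAS5, per the submitters' processing notes. Neither its version nor its settings are stated there. The columns have a mean of 500 after trimming 2% at either end of each array, and 2413 values at 0 on the log2 scale. Each was taken back to a linear signal, 8 (the 10th percentile) was added, and log2 was taken again, so changes of dim genes are understated. Depth has no counterpart on arrays, and their number limits the precision.

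The 64 control probe sets and those with a mean signal at or below the 25th percentile were left out (56.9 in the 7-week and 49.1 in the 21-day fit). For the remaining 17059, R 4.3.3 and limma 3.58.1 (lmFit, eBayes with intensity trend) fitted the groups, with 8 arrays per experiment in 1 fit. Background is the highest signal of the Trpn controls. The platform annotation pairs 13513 probe sets with 1 gene, of which 13436 matched RefSeq TAIR10.1, pairs 503 with several, and does not list 8794. No sequence or coordinate was used beyond gene order.

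In each comparison the polymerase genes and the 3 ribosomal and 3 other genes with the largest change were named, and 2 genes of a list, any other member being open to naming. Genes and lists were chosen with earlier results of these data known. The main fit did not pair samples by replicate number, since the labels do not say whether equal numbers belong together. Deviations of equal numbers correlated between -0.11 and 0.15 over all probe sets, and between -0.21 and 0.76 over the 29 genes (0.76 for control and Zn-deficient shoots of the 7-week plants). These values do not settle whether the numbers pair samples. The fit was tested on simulated data. Alternatives changed the added constant, scaling, filter, variance model, arrays in the fit and block, and left out each array. The fit across both experiments and the crossed block were added later.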

Additional observations from a re-analysis of the deposited data

Results flagged for a closer look

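The change between roots and shoots differed between 7-week control and 21-day wild-type plants for 7 of the 29 genes, by limma's interaction test on all 16 arrays (13.6% of all probe sets were called in the same direction). The differences, 7-week minus 21-day on the log2 scale, were 2.79 for rpl14, 2.72 for rpl22, 2.28 for rps19, 1.67 for rpl16, 1.64 for rps7, 1.27 for ycf1 and 1.20 for matK. Of the nuclear partners only RPOTmp, CLPF and PRPS6 are listed here, and the same test called all of them. The differences were 2.39 for RPOTmp (with 7-week shoots below background, so the size is not resolved), 1.66 for CLPF, a Clp protease adaptor, and -0.95 for PRPS6. PRPS6 changed more in the 7-week plants, and the others less or the opposite way. Age and culture cannot be told apart in this comparison, and the labels name no array batch. No sample was tested for lying far from its group, since groups held 2 arrays.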

How the results depend on the processing

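No called change had the opposite sign under any alternative run. The 27 calls of 21-day wild type held in every alternative and every fit without 1 array for 26 genes, those of the mutant for 25, those of 7-week Zn-deficient plants for 8 of 9, those of 7-week control plants for 9 of 16 and those between experiments for 1 of 7. Counts of called genes moved by over 1.5 times in few alternatives that kept all arrays of the compared groups. With 1 array left out they moved so in every fit between experiments, in most fits of 7-week control organs and in some of Zn-deficient organs. In 1 fit of 16 arrays Zn-deficient shoots had 1 called gene, and without an intensity trend the comparison between experiments had 2. Leaving out 1 array gave 0 to 1 in mutant shoots (1 without mutant shoot replicate 1), 10 to 19 in 7-week control organs, 8 to 14 in Zn-deficient organs (9 lower and 5 higher without Zn-deficient shoot replicate 1) and 1 to 12 between experiments. The difference of ribosomal and polymerase medians moved to 0.22 in mutant shoots with 58 added to the signal, to -0.084 in 21-day wild-type organs with 1 added, and to -0.86 with 58 added and -0.89 with quantile normalization in mutant organs. Without 1 array it ran from -0.44 to 0.07 in Zn-deficient shoots, from -0.0087 to 0.36 in mutant shoots, from -0.52 to -0.04 in mutant roots, from -0.89 to -0.32 in 7-week control organs, from -0.55 to -0.17 in Zn-deficient organs, from -0.69 to -0.20 in 21-day wild-type organs and from -1.12 to -0.62 in mutant organs. With the replicate number as a block, 18 genes were called in 7-week control organs and 11 in Zn-deficient organs, 27 in either 21-day genotype, 7 between experiments and 0 elsewhere. Equal numbers had a correlation of 0.15 in 7-week shoots (0.76 over the 29 genes) and of -0.11 in 7-week roots (0.06 over the 29 genes), and a crossed pairing called 0 genes for Zn deficiency. A second probe set per gene was not run, since each gene had 1. With 2 arrays a group, changes smaller than the SE given cannot be resolved, and many larger than it were not called either. Genes near background, rpoB and ycf2, gave no test.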
